A study of Mus musculus with 12 samples.

Results

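The SR and hnRNP genes encode the RNA-binding proteins that most directly steer the choice of splice sites. Genes were taken by symbol, as those named Srsf followed by a number or named with the prefix Hnrnp in the platform annotation, without pseudogenes. The rule gave 30 genes, 10 SR and 20 hnRNP, of 19087 genes with 1 symbol on the array, read by 68 of 45018 array features. A ratio on every array, which testing required, was present for 28 of the 30 genes (9 SR and 19 hnRNP, 65 features) and for 16549 genes in all. Srsf12 and Hnrnpul2 were left untested for lack of complete ratios.

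SR proteins carry RNA-recognition motifs and an arginine- and serine-rich domain, bind exonic enhancers and recruit the spliceosome to nearby splice sites. Proteins of the hnRNP class coat nascent transcripts, and many of them, such as hnRNP A1, favour exon skipping by binding silencers. Both classes regulate their own messages: most SR genes and many hnRNP genes contain a highly conserved poison exon or an alternatively spliced 3' end whose inclusion exposes the transcript to nonsense-mediated decay. Actinomycin D intercalates into DNA, preferentially at GpC steps, and blocks RNA polymerases, so that an mRNA pool treated with it is no longer refilled at the normal rate. Prolactin, a pituitary hormone, signals through JAK2 and STAT5.

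The genes were followed in Hepa 1-6, a mouse hepatoma line, and AML12, a hepatocyte line from mice carrying a TGF-alpha transgene. The labels name hepatoma as the cell source of both lines. Both had been kept in DMEM with 10% serum, to which dexamethasone and insulin were added for AML12, and were deprived of serum and additives overnight. Each line was then exposed for 8 h to 10 µg/mL of actinomycin D, to 200 ng/mL of ovine pituitary prolactin, or to neither (the serum-free control), with 2 arrays in each of the 6 groups. The series design calls these biological replicates. On each array Cy5-labelled sample RNA competed with Universal Mouse Reference RNA in Cy3, which pools 11 mouse cell lines, and no dyes were swapped.

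Values below are log2 ratios of sample over that reference, and differences are log2 differences between group means ± SE with limma's adjusted p over all 16549 genes. A level is relative to the pooled reference and cannot be set against that of another gene. Each array was normalized by itself, so a difference is relative to the other transcripts on the array, and a fall under actinomycin D is a loss relative to the average message. The deposited ratios were taken as log10; were they log2 instead, every value here would have to be divided by 3.32, and signs and p-values would stay as they are. A gene is said to have risen or fallen only where its adjusted p was under 0.05.

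Each array held a ratio for 37397 to 40281 features. Alb, the main secretory product of hepatocytes, stood at 4.15 to 4.48 in Hepa 1-6 and 4.12 to 4.98 in AML12, and Afp, a fetal liver and hepatoma marker, stood at 5.29 to 5.75 in Hepa 1-6 and -0.29 to 0.02 in AML12. Not all hepatocyte markers stood so far above the pool. Apoa2 was at 2.55 to 3.49 in Hepa 1-6 and -1.55 to 2.66 in AML12, and Apoc3 at -0.4 to 1.02 and 1.51 to 3.19. Ptprc, the pan-leukocyte CD45 gene, was at -8.39 to -7.14 in Hepa 1-6 and -5.70 to -5.32 in AML12. Cd3e, another leukocyte marker, lay nearer the pool, at -1.66 to -1.13 in Hepa 1-6 and -1.62 to 0.56 in AML12.

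By the average of its features, Srsf3 was the SR gene that actinomycin D lowered most in both lines. It encodes the smallest SR protein, a factor in exon inclusion and mRNA export, and lies on chromosome 17 at 29032660 to 29043372 (GRCm38.p6). Its log2 ratio was -1.23 and -1.28 in actinomycin D-treated Hepa 1-6, against 0.90 and 0.92 in the Hepa 1-6 controls. In AML12 it was -1.20 and -1.03 with actinomycin D, against 0.77 and 0.81 in controls. Treated arrays thus lay below the reference pool and control arrays above it, with no overlap in either line. The differences were -2.17 ± 0.07 (4.49-fold, adjusted p = 1.2e-06 in limma) in Hepa 1-6 and -1.90 ± 0.07 (3.74-fold, adjusted p = 6.8e-07) in AML12.

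Srsf2, also called SC35, is a general splicing activator that regulates its own message through alternative 3' exons. It was at -0.50 and -0.39 in treated Hepa 1-6, against 0.33 and 0.41 in controls, and at -0.68 and -0.40 in treated AML12, against 0.44 and 0.61 in controls. These groups did not overlap in either line, with differences of -0.82 ± 0.10 (adjusted p = 0.00036, limma) in Hepa 1-6 and -1.06 ± 0.10 (adjusted p = 7.2e-05) in AML12. Srsf4 and Srsf6, close paralogs that are large SR proteins, fell by less. Srsf4 was at -0.64 and -0.63 in treated Hepa 1-6, against -0.20 and -0.21 in controls, and at -0.85 and -0.78 in treated AML12, against -0.25 and -0.14 in controls. Its differences were -0.44 ± 0.06 (adjusted p = 0.0004) and -0.62 ± 0.06 (adjusted p = 5e-05) in the same line order. Srsf6 differed by -0.46 ± 0.05 in Hepa 1-6 (adjusted p = 0.00022) and -0.33 ± 0.05 in AML12 (adjusted p = 0.0011).

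Not every SR gene fell. Srsf1, formerly SF2/ASF and the founding member of the family, differed by -0.06 ± 0.08 in Hepa 1-6 and 0.10 ± 0.08 in AML12 (adjusted p = 0.56 and 0.30). Srsf10, a splicing repressor once dephosphorylated, differed by 0.03 ± 0.07 and 0.04 ± 0.07 in the same order (adjusted p = 0.75 and 0.69). Srsf5 rose by 0.30 ± 0.07 in AML12 (adjusted p = 0.0061), where treated arrays read -0.17 and -0.06 against -0.40 and -0.43 in controls, and differed by 0.02 ± 0.07 in Hepa 1-6 (adjusted p = 0.79). The rise of Srsf5 came from 1 of its 2 features, as given below. Srsf9 rose by 0.28 ± 0.07 in AML12 (adjusted p = 0.0074) and differed by 0.18 ± 0.07 in Hepa 1-6 (adjusted p = 0.053).

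Among hnRNP genes, Hnrnpdl fell furthest in both lines by the average of its features. Its product binds AU-rich RNA and resembles that of Hnrnpd (AUF1), and both genes lie on chromosome 5, Hnrnpd at 99955935 to 99979130 and Hnrnpdl at 100033577 to 100039936 (GRCm38.p6). Hnrnpdl was at -1.45 and -1.42 in treated Hepa 1-6, against -0.29 and -0.13 in controls, and at -1.66 and -1.54 in treated AML12, against -0.37 and -0.37 in controls. The nearly equal differences were -1.23 ± 0.07 (2.34-fold, adjusted p = 9e-06, limma) in Hepa 1-6 and -1.24 ± 0.07 (2.36-fold, adjusted p = 4.5e-06) in AML12. Hnrnpd itself fell by less, with -0.31 and -0.22 in treated Hepa 1-6 against 0.42 and 0.35 in controls, and 0.05 and 0.16 in treated AML12 against 0.34 and 0.48 in controls. Its differences were -0.65 ± 0.07 (adjusted p = 0.00019) in Hepa 1-6 and -0.31 ± 0.07 (adjusted p = 0.0076) in AML12.

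Hnrnpab, a relative of Hnrnpd whose product binds RNA and DNA, was at 0.26 and 0.28 in treated Hepa 1-6, against 0.92 and 0.94 in controls. In AML12 it was at -0.68 and -0.47 with actinomycin D, against 0.26 and 0.35 in controls. It fell by 0.66 ± 0.08 in Hepa 1-6 (adjusted p = 0.00026) and by 0.88 ± 0.08 in AML12 (adjusted p = 4.4e-05). Hnrnpu, a nuclear matrix and chromatin-binding protein gene, fell by 0.34 ± 0.06 in both lines (adjusted p = 0.0019 in Hepa 1-6 and 0.0018 in AML12). Hnrnpll, known for switching CD45 exons in lymphocytes, differed by -0.57 ± 0.10 in Hepa 1-6 (adjusted p = 0.0022) and -0.84 ± 0.10 in AML12 (adjusted p = 0.00025). That fall came from 1 of its 3 features, described below.

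Hnrnpa0, whose product binds AU-rich elements, fell in Hepa 1-6, with -0.38 and -0.63 in treated cells against 0.27 and -0.01 in controls (-0.64 ± 0.14, adjusted p = 0.0058). In AML12 it differed by -0.03 ± 0.14 (adjusted p = 0.88). Hnrnph1, which binds G-rich runs, fell in AML12, with -0.08 and 0.01 in treated cells against 0.37 and 0.33 in controls (-0.38 ± 0.08, adjusted p = 0.0046), and differed by -0.14 ± 0.08 in Hepa 1-6 (adjusted p = 0.20). Hnrnpa1, the best-known splicing silencer, rose in Hepa 1-6, where treated arrays read 0.14 and 0.35 against -0.13 and -0.02 in controls (0.32 ± 0.08, adjusted p = 0.013). In AML12 it differed by 0.20 ± 0.08 (adjusted p = 0.078), an average over features that parted, as given below. Hnrnpa1 has many near-identical processed copies in the genome, which the array cannot be assumed to tell apart.

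Counted over the 28 genes, actinomycin D lowered 14 and raised 2 in Hepa 1-6, where 23.0% of all genes tested fell and 27.9% rose. In AML12 it lowered 11 and raised 8, where 25.5% of all genes fell and 28.0% rose. The share that fell was 50.0% in Hepa 1-6 and 39.3% in AML12, and the share that rose was 7.14% and 28.6% in that order. Of the 9 SR genes, 5 fell and none rose in Hepa 1-6, and 4 fell and 3 rose in AML12. The median difference was -0.21 in Hepa 1-6, against 0.07 for all genes, and -0.03 in AML12, against 0.04 for all genes. Treated arrays lay below both controls for 19 members and above both for 4 in Hepa 1-6, where 33.2% and 42.8% of all genes did so, and for 12 and 10 in AML12, where 35.9% and 41.2% did. Among the 28 genes, changes of at least 2-fold were all falls, of Srsf3 and Hnrnpdl in Hepa 1-6 and of Srsf3, Hnrnpdl and Srsf2 in AML12. These are 2 and 3 of 28 genes. Of all 16549 genes, 1655 in Hepa 1-6 and 2013 in AML12 passed with a change of at least 2-fold in either direction.

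Some of the weaker calls depended on single arrays. In Hepa 1-6 the rise of Hnrnpa1 missed the threshold without the first control array (0.27, adjusted p = 0.081) or the second actinomycin D array (0.22, adjusted p = 0.074), as did the fall of Hnrnph3 without the second control (-0.30, adjusted p = 0.08) or the second actinomycin D array (-0.25, adjusted p = 0.087). In AML12 the fall of Hnrnpd missed it without the second control array (-0.24, adjusted p = 0.056) or the first actinomycin D array (-0.25, adjusted p = 0.051), and the rise of Srsf9 without the first control array (0.21, adjusted p = 0.052). The number of members that rose in Hepa 1-6 was 0 without the first control or the second actinomycin D array and 1 without the second control; in AML12 it was 5 without the first control. The falls of Srsf2, Srsf3, Srsf4, Srsf6, Hnrnpdl, Hnrnpab, Hnrnpu and Hnrnpll passed whichever array was left out.

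**Figure D1:**
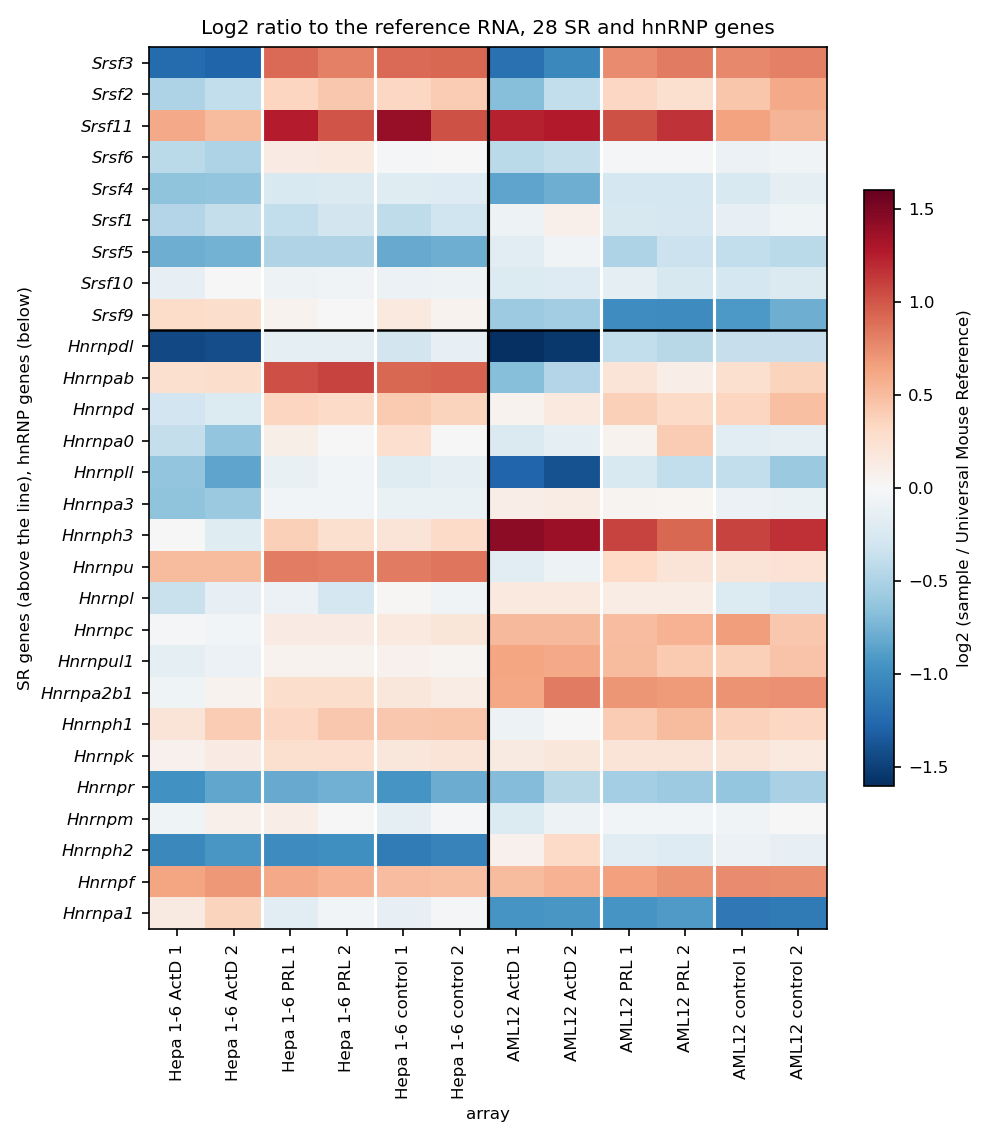
Log2 ratio over the reference pool (colour scale, red above and blue below the pool) of the 28 genes (rows, SR genes above the line and hnRNP genes below it, ordered by their response in Hepa 1-6) on each of the 12 arrays (columns, Hepa 1-6 left of AML12). Srsf3 is blue on the 4 actinomycin D arrays, at -1.28 to -1.03, and red on the prolactin and control arrays. Hnrnpa1 and Hnrnph2 show the widest gaps between the control arrays of the lines, of 1.06 and -0.98.

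**Figure D2:**
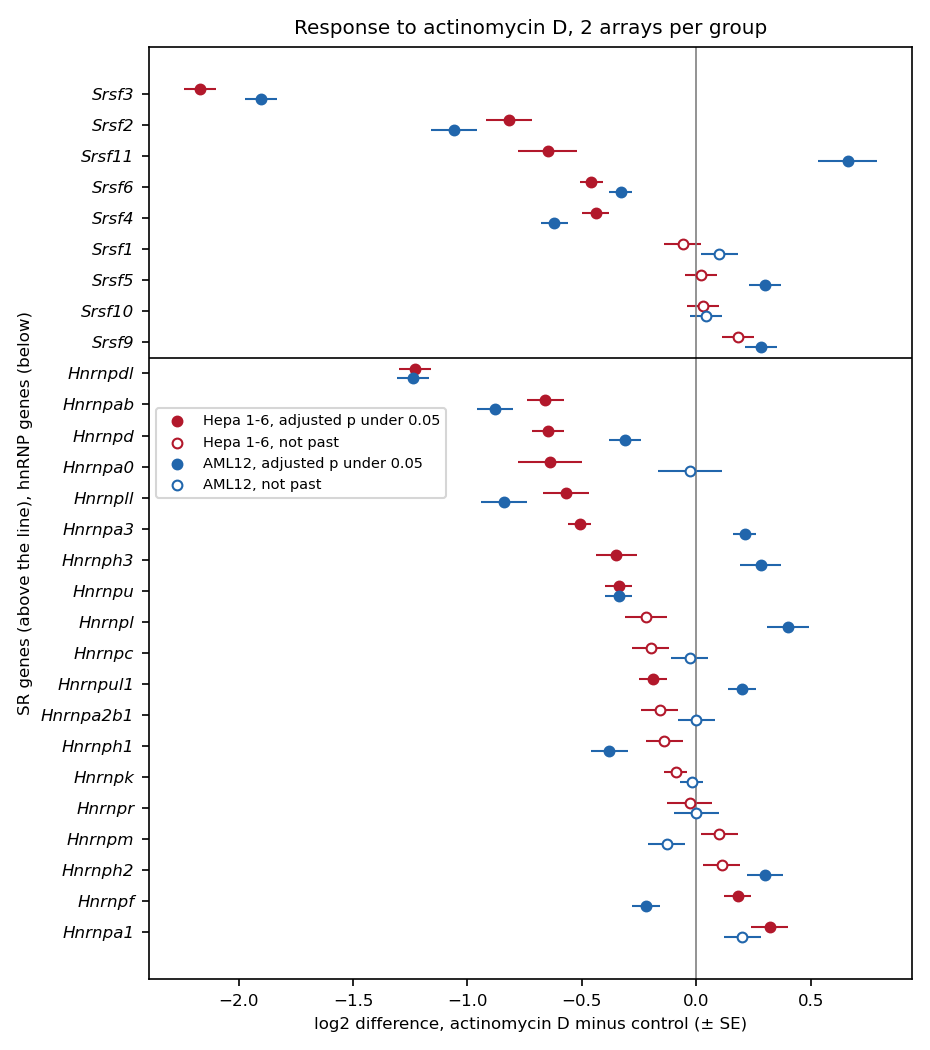
Actinomycin D minus control difference (log2, x axis) of the 28 genes (rows) in Hepa 1-6 (red) and AML12 (blue), with bars of 1 SE from limma; filled points passed an adjusted p of 0.05. Srsf3, Srsf2 and Hnrnpdl lie to the left in both lines, and Srsf11 has the widest gap between the lines, at -0.65 in Hepa 1-6 and 0.66 in AML12.

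The promoters of the 3 genes that fell most in both lines by gene average, Srsf3, Hnrnpdl and Srsf2, are shown as those of the members with the largest average responses. Their windows from 250 bases before to 50 after an annotated start (RefSeq, GRCm38.p6) are printed 5' to 3' on the gene's strand. They lie at chr17:29032410-29032709 on the plus strand (Srsf3), chr5:100039173-100039472 on the minus strand (Hnrnpdl) and chr11:116853045-116853344 on the minus strand (Srsf2). The Hnrnpdl and Srsf2 windows lie inside the annotated gene spans (Srsf2 at 116849897 to 116853675), so the starts used for them are not the outermost ones. Capitals mark a CCAAT box (CCAAT, or ATTGG on the other strand) and a TATA box (TATAAA).
Srsf3: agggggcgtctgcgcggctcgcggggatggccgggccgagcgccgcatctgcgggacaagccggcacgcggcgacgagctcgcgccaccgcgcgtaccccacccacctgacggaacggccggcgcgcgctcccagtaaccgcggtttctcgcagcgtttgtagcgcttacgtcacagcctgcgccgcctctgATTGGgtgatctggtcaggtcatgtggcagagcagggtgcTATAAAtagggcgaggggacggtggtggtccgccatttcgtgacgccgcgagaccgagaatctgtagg
Hnrnpdl: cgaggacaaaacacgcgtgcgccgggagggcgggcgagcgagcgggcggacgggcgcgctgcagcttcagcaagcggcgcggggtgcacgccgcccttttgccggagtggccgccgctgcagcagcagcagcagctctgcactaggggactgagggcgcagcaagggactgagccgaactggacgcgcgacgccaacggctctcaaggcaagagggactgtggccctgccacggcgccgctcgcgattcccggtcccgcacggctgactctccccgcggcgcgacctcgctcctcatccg
Srsf2: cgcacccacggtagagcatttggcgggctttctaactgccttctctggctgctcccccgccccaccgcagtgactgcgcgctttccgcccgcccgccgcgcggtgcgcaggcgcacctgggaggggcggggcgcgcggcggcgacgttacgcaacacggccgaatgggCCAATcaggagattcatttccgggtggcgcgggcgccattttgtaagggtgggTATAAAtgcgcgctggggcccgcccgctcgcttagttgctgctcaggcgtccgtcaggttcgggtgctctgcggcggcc

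The GC content of these windows was 68.3% for Srsf3, 72.7% for Hnrnpdl and 69.3% for Srsf2, with 41, 52 and 48 GpC steps. Srsf3 and Srsf2 each held a CCAAT and a TATA box, and the Hnrnpdl window held no match to any motif searched. The reference held 40 windows for 28 of the 30 genes, Srsf12 included and Hnrnpll and Hnrnpul2 not. Their median GC content was 68.5%, with 35 GpC steps, against 52.7% and 20 over all 32851 windows, and they ranged from 48.3% (Hnrnpa1) to 79.7% (Hnrnpa0). By gene average, Srsf10 and Hnrnpm passed in neither line, and their windows held 44 and 26 GpC steps at 71.3% and 58.0% GC. No relation between promoter composition and response was tested. On either strand, CCAAT occurred in 52.5% of the member windows and 37.4% of all windows, and TATAAA in 10.0% and 13.6%. The ETS core CCGGAAG occurred in 22.5% and 8.86%, the E box CACGTG in 12.5% and 7.15%, and the STAT site TTCNNNGAA in 10.0% and 8.3%. Windows of 1 gene can overlap, and a gene with several windows is counted more than once. Among the ETS matches this holds for Hnrnpf, Srsf4 and Srsf11. The shares were not matched for GC content, which was higher in the member windows, and a match is only a match of letters.

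Most of these genes were read by more than 1 feature, and within a gene the features could respond very differently to actinomycin D. Of the 28 genes, 20 had several features. The feature values below come from a separate limma fit over 35664 features, adjusted over all of them. Where on the transcript each feature lies, and which isoforms it reads, is not given in the sources used here.

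Srsf3 had 3 features. The feature that fell most, annotated to a RIKEN cDNA, read -2.90 and -3.24 in treated Hepa 1-6 against 1.07 and 1.03 in controls, and -3.00 and -2.82 in treated AML12 against 1.39 and 1.58 in controls. The differences were -4.12 ± 0.13 (17.4-fold, adjusted p = 4.9e-07) in Hepa 1-6 and -4.39 ± 0.13 (21.0-fold, adjusted p = 2.4e-07) in AML12. The feature annotated to the RefSeq mRNA fell by 1.24 ± 0.12 in Hepa 1-6 (adjusted p = 8e-05) and 0.83 ± 0.12 in AML12 (adjusted p = 0.00051). The third, annotated to another RIKEN cDNA, fell by 1.14 ± 0.10 in Hepa 1-6 (adjusted p = 5.8e-05) and 0.48 ± 0.10 in AML12 (adjusted p = 0.0043). All 3 features fell in both lines, and the size of the gene's average fall was set largely by 1 of them. In AML12 the falls of the others, 0.83 and 0.48, were smaller than that of any Srsf2 feature (0.93 to 1.23). The rank of Srsf3 above Srsf2 in AML12 thus rests on the feature that fell most.

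Hnrnpdl repeated that arrangement. A feature annotated to its RefSeq mRNA differed by -2.45 ± 0.10 in Hepa 1-6 (5.45-fold, adjusted p = 1.6e-06) and -3.05 ± 0.10 in AML12 (8.29-fold, adjusted p = 3.8e-07). A second feature annotated to the same mRNA fell by 0.69 ± 0.07 in Hepa 1-6 (adjusted p = 0.0001) and 0.34 ± 0.07 in AML12 (adjusted p = 0.0034). The remaining 2 features fell by 1.08 and 0.69 in Hepa 1-6 and by 1.12 and 0.43 in AML12, all past the threshold. In AML12 the falls of 0.43 and 0.34 were smaller than that of any Hnrnpab feature (0.68 to 1.05). The rank of Hnrnpdl in AML12 thus also depends on which features are averaged.

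Hnrnpll was the clearest case of a gene value that rests on 1 feature. A feature annotated to a full-length cDNA differed by -2.11 ± 0.28 in Hepa 1-6 (adjusted p = 0.00051) and -2.62 ± 0.28 in AML12 (adjusted p = 0.00013). Its other features, both annotated to the RefSeq mRNA, differed by 0.06 ± 0.07 and 0.34 ± 0.07 in Hepa 1-6 (adjusted p = 0.50 and 0.0033) and by -0.07 ± 0.07 and 0.18 ± 0.07 in AML12 (adjusted p = 0.42 and 0.049). With the median of the features in place of their mean, Hnrnpll rose, by 0.34 in Hepa 1-6 and 0.18 in AML12. No background marks were used here, so the lowest ratios may lie near the detection floor and the size of these largest falls is uncertain.

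**Figure D3:**
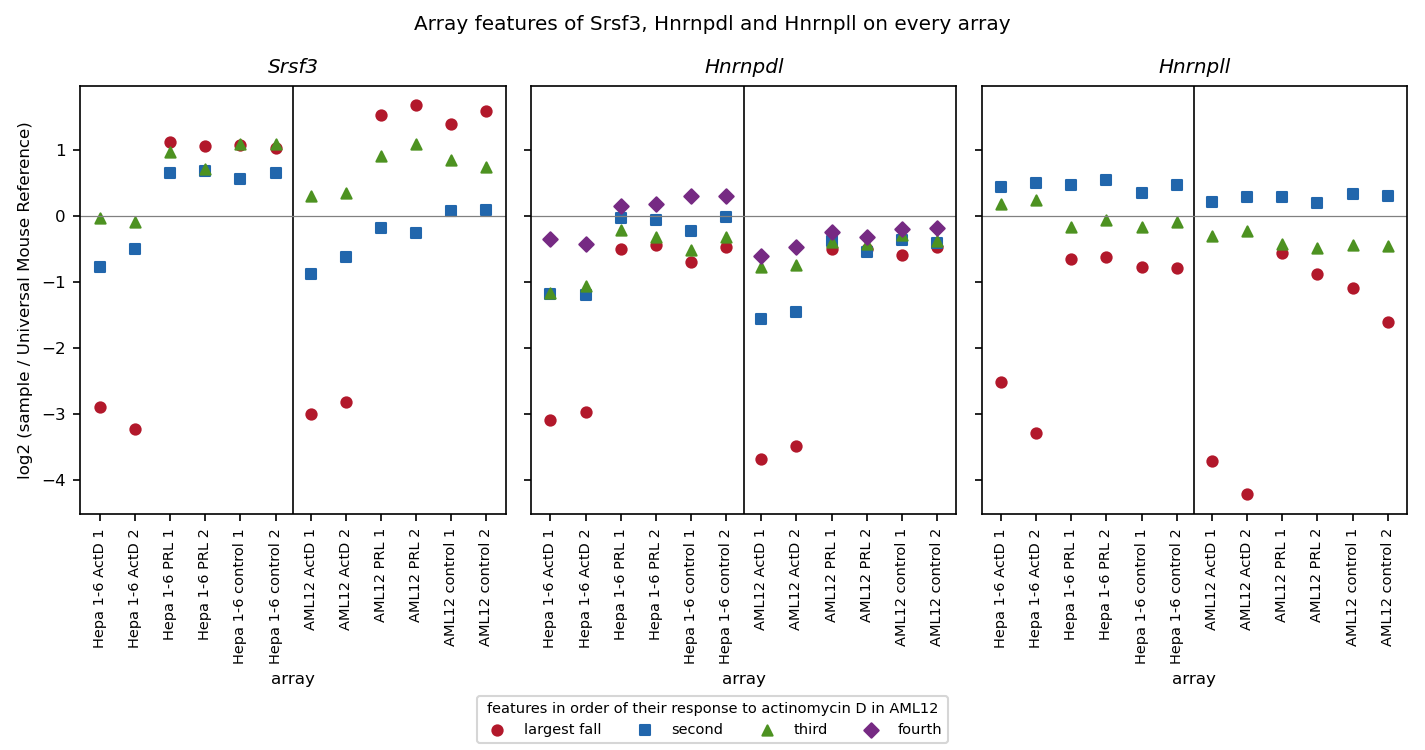
Log2 ratio over the reference pool (y axis) of each array feature of Srsf3, Hnrnpdl and Hnrnpll on the 12 arrays (x axis); symbols rank the features of a gene by their response to actinomycin D in AML12. In each gene 1 feature lies far below the others on the 4 actinomycin D arrays, at -2.90 and -3.24 in Hepa 1-6 and -3.00 and -2.82 in AML12 for Srsf3.

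In Srsf2, Hnrnpab and Srsf4 every feature fell in both lines. All 4 features of Srsf2 fell, by 0.68 to 0.88 in Hepa 1-6 and by 0.93 to 1.23 in AML12, and all 4 of Hnrnpab fell, by 0.47 to 0.87 in Hepa 1-6 and by 0.68 to 1.05 in AML12. Srsf6 had 1 feature that fell in both lines, by 0.46 ± 0.06 in Hepa 1-6 and 0.82 ± 0.06 in AML12, and 1 that fell by 0.45 ± 0.06 in Hepa 1-6 but rose by 0.16 ± 0.06 in AML12 (adjusted p = 0.046). The fall of Hnrnpu came mostly from 1 feature in Hepa 1-6 (-0.70 ± 0.08, against 0.02 ± 0.08 for the other).

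Srsf1 shows how an average can hide movement. In AML12 its features, both annotated to the same RefSeq mRNA, differed by -0.42 ± 0.10 (adjusted p = 0.0062) and 0.62 ± 0.07 (adjusted p = 0.00016), so that the gene value was 0.10. Hnrnpa2b1 (-0.30 ± 0.08 and 0.29 ± 0.09), Hnrnpk (-0.37 ± 0.07 and 0.34 ± 0.08) and Hnrnpc (-0.37 ± 0.11 and 0.35 ± 0.11) also had a feature past the threshold in each direction in AML12. Those genes encode a relative of hnRNP A1, a poly(C)-binding protein and a pre-mRNA packaging protein that binds uridine tracts. The features of Hnrnpa1 parted in AML12 as well, with -0.54 ± 0.11 (adjusted p = 0.0036 in limma) against 0.49 ± 0.08 and 0.59 ± 0.08. For Srsf5 in AML12, 1 feature rose (0.54 ± 0.09, adjusted p = 0.0015 in limma) and the other did not pass (0.06 ± 0.09, adjusted p = 0.62). In Hepa 1-6 the features of Srsf5 parted (-0.30 ± 0.09 and 0.34 ± 0.09), as did those of Hnrnpc (-0.66 ± 0.11 and 0.48 ± 0.11). Features past the threshold in opposite directions were found in 7 of the 20 genes in AML12 (35.0%), against 9.75% of the 7067 genes with several features, and in 3 of 20 in Hepa 1-6 (15.0%), against 8.36%. Feature responses at least 2 log2 units apart were found in Srsf3 and Hnrnpll in Hepa 1-6 (10.0%, against 7.03%) and in Srsf3, Hnrnpdl and Hnrnpll in AML12 (15.0%, against 6.89%). The number of features per gene was not matched between the 20 genes and the rest.

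**Figure D4:**
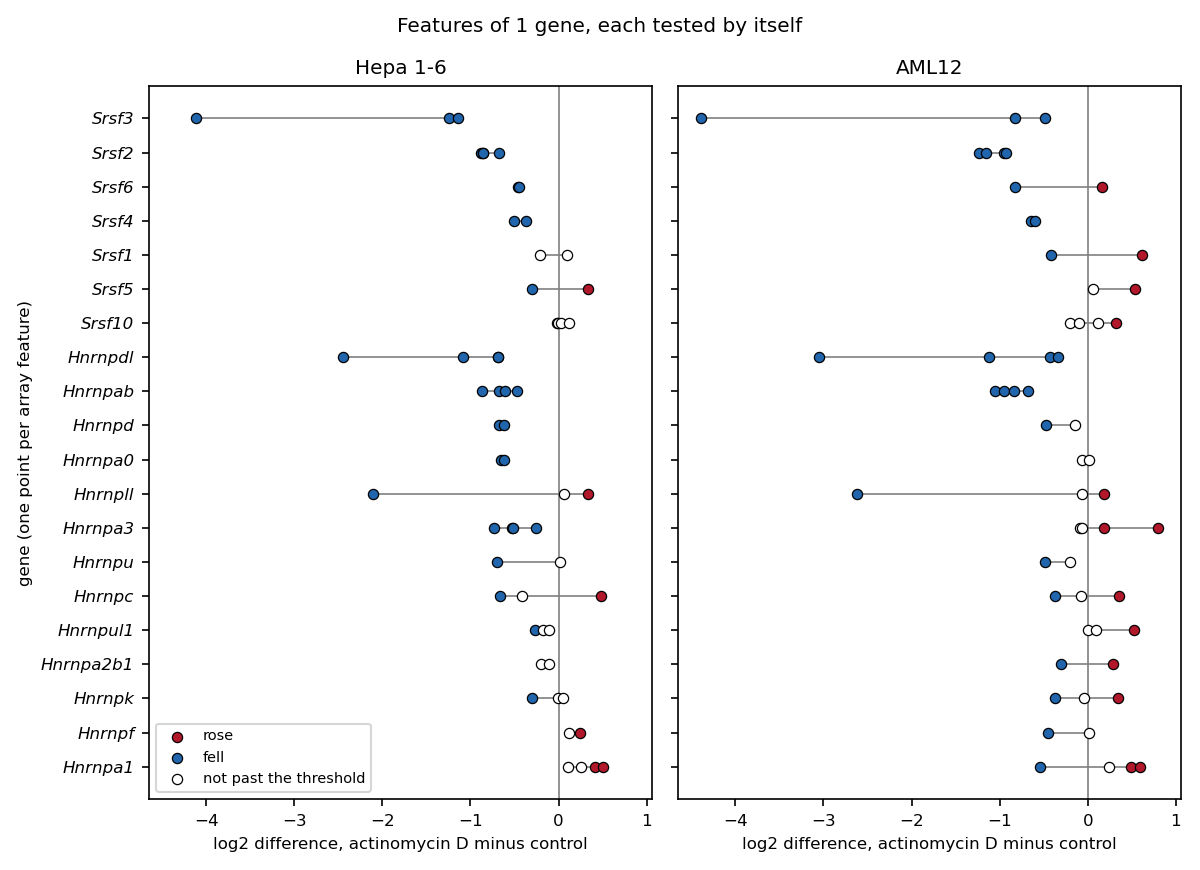
Actinomycin D minus control difference (log2, x axis) of each array feature of the 20 genes with several features (rows) in Hepa 1-6 (left) and AML12 (right); points are features, coloured where they passed the threshold, and a line joins those of 1 gene. Srsf3, Hnrnpdl and Hnrnpll have a feature far to the left, at -4.12, -2.45 and -2.11 in Hepa 1-6.

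Over the 65 features, actinomycin D lowered 35 and raised 6 in Hepa 1-6, where 23.5% of all features fell and 26.7% rose. In AML12 it lowered 28 and raised 18, where 26.0% of all features fell and 28.6% rose. The number raised in AML12 was 9 without the first control array and 10 without the second actinomycin D array.

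The remaining 2 members could not be tested, and what they read is given as values. Hnrnpul2, a paralog of Hnrnpu, had a ratio of 1.23 and 1.88 in prolactin-treated Hepa 1-6 and 1.18 and 1.46 in their controls. In AML12 its ratio was 2.95 and 2.40 with prolactin, against 2.40 and 1.04 in controls. It had no ratio on any of the 4 actinomycin D arrays. Srsf12, a tissue-restricted SR gene, had a ratio on 11 arrays, all but the first actinomycin D array of Hepa 1-6, between -0.14 and 0.88.

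The 2 lines shared part of the response to actinomycin D and parted on the rest. Across the 28 genes the responses in Hepa 1-6 and AML12 correlated at r = 0.76 (Spearman's rho 0.52, across genes, which are not independent replicates), and 19 had the same sign. These values were not computed over all genes, so they do not show whether members agreed more or less than other genes did. Srsf2, Srsf3, Srsf4, Srsf6, Hnrnpab, Hnrnpd, Hnrnpdl, Hnrnpll and Hnrnpu fell in both lines, 9 of 28 or 32.1%, against 15.2% of all genes. No member rose in both, against 16.2% of all genes. Srsf11, Hnrnpa3, Hnrnph3 and Hnrnpul1 fell in Hepa 1-6 and rose in AML12, which is 14.3% of members and 1.72% of all genes, and Hnrnpf did the reverse (3.57%, against 2.1%). In neither line did 7 members pass (25.0%, against 30.8%). The Hnrnpul1 values rest on single features: in the fit by features 1 rose in AML12 (0.52 ± 0.08) and another fell in Hepa 1-6 (-0.27 ± 0.07). A further Hnrnpul1 feature was left out for lack of complete ratios. It read 0.93 and 0.77 in AML12 controls and had no ratio on the treated AML12 arrays. In Hepa 1-6 it read 1.02 and 0.99 in controls and -0.23 on the second treated array, with no ratio on the first.

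Tested directly, the response differed between the lines for 7 members: 6 were lower in Hepa 1-6, where 12.8% of all genes were lower, and 1 was higher, where 17.2% of all genes were higher. Srsf11, an SR-like protein gene with 1 feature on the array, differed most. It was at 0.60 and 0.50 in treated Hepa 1-6 against 1.39 and 1.02 in controls, and at 1.23 and 1.27 in treated AML12 against 0.64 and 0.54 in controls. Treated arrays lay below both controls in Hepa 1-6 (-0.65 ± 0.13, adjusted p = 0.0038) and above both in AML12 (0.66 ± 0.13, adjusted p = 0.0032), and the difference of responses was -1.31 ± 0.18 (adjusted p = 0.0017, limma). The control levels differed too, as given with the control comparison below.

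Hnrnpa3, a close relative of Hnrnpa1, was at -0.64 and -0.60 in treated Hepa 1-6 against -0.11 and -0.11 in controls, and at 0.10 and 0.12 in treated AML12 against -0.09 and -0.11 in controls. The gene values of the controls differed by -0.01 ± 0.05 between the lines (adjusted p = 0.86), while the treated groups lay on either side of them, with a difference of responses of -0.72 ± 0.07 (adjusted p = 0.00029). The near equality of the controls averages features that disagreed. In the fit by features they differed between the controls by -0.52, -0.34 and 0.67, all past the threshold, and by 0.14, not past it. Under actinomycin D the 4 Hnrnpa3 features all fell in Hepa 1-6, by 0.26 to 0.73, whereas in AML12 a pair of them rose, by 0.19 and 0.80, and the others differed by -0.09 and -0.06. Hnrnph3 was at 0.00 and -0.19 in treated Hepa 1-6 against 0.20 and 0.30 in controls, and at 1.43 and 1.37 in treated AML12 against 1.08 and 1.17 in controls. Its difference of responses was -0.63 ± 0.13 (adjusted p = 0.0095).

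Hnrnpl, which binds CA repeats, differed by -0.62 ± 0.13 (adjusted p = 0.0087): it rose in AML12, where treated arrays read 0.16 and 0.15 against -0.22 and -0.27 in controls (0.40 ± 0.09, adjusted p = 0.0062). In Hepa 1-6 its treated arrays read -0.36 and -0.13 against 0.02 and -0.06 in controls (-0.22 ± 0.09, adjusted p = 0.073). Hnrnpul1 (-0.39 ± 0.08, adjusted p = 0.0087) and Hnrnpd (-0.34 ± 0.10, adjusted p = 0.039) were also lower in Hepa 1-6, and Hnrnpf, a G-tract binder like Hnrnph1, was higher (0.40 ± 0.08, adjusted p = 0.0078). The call for Hnrnpf came from 1 of its 2 features (0.69 ± 0.12, adjusted p = 0.0039, against 0.10 ± 0.12, adjusted p = 0.57, in the fit by features) and was lost with the feature of highest mean ratio (0.10, adjusted p = 0.58). That for Hnrnpul1 missed the threshold with the median of features (-0.28, adjusted p = 0.051). The call for Hnrnpd was lost when any of 8 single arrays was left out, with differences of -0.39 to -0.27 and adjusted p-values of 0.051 to 0.12, those arrays being the first control and second actinomycin D array of AML12 and all 6 of Hepa 1-6. Within the lines, Hnrnpf and Hnrnpul1 also lost their calls: in Hepa 1-6 without the first control (0.19 and -0.17, adjusted p = 0.083 and 0.10) or the second (0.17 and -0.20, adjusted p = 0.099 and 0.065). Hnrnpul1 lost its Hepa 1-6 call without the first actinomycin D array as well (-0.16, adjusted p = 0.12), and Hnrnpf without the second (0.14, adjusted p = 0.13). In AML12 both lost them without the first control (-0.21 and 0.17, adjusted p = 0.056 and 0.095) or the first actinomycin D array (-0.20 and 0.19, adjusted p = 0.062 and 0.074). The AML12 rise of Hnrnph3 was lost without any 1 of its 4 arrays (0.24 to 0.33, adjusted p = 0.063 to 0.15). That of Hnrnph2 (0.30 ± 0.08, adjusted p = 0.015) was lost without the second control (0.29, adjusted p = 0.069) or the second actinomycin D array (0.18, adjusted p = 0.078).

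Without treatment, 6 members were higher and 9 lower in Hepa 1-6 than in AML12, where 32.1% of all genes were higher and 29.8% lower. Hnrnpa1 was higher, at -0.13 and -0.02 in Hepa 1-6 controls against -1.14 and -1.13 in AML12 controls (1.06 ± 0.08, 2.09-fold, adjusted p = 8.7e-06, limma). Srsf9, one of the shorter SR proteins, was at 0.16 and 0.06 in Hepa 1-6 against -0.92 and -0.78 in AML12 (0.96 ± 0.07, adjusted p = 4.3e-06). Hnrnpab (0.63 ± 0.08, adjusted p = 0.00015), Hnrnpu (0.62 ± 0.06, adjusted p = 2.9e-05) and Srsf11 (0.61 ± 0.13, adjusted p = 0.0035) were higher by similar amounts.

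The X-linked Hnrnph2 was the lowest in Hepa 1-6 relative to AML12, at -1.12 and -1.07 against -0.10 and -0.13 (-0.98 ± 0.08, 1.97-fold, adjusted p = 1.3e-05). Its paralog Hnrnph3, on chromosome 10, was also lower, at 0.20 and 0.30 in Hepa 1-6 against 1.08 and 1.17 in AML12 (-0.87 ± 0.09, adjusted p = 5.8e-05). Hnrnph1, the close relative on chromosome 11, differed by 0.09 ± 0.08 (adjusted p = 0.39). Hnrnpa2b1 was at 0.18 and 0.12 in Hepa 1-6 against 0.72 and 0.73 in AML12 (-0.58 ± 0.08, adjusted p = 0.00028). Hnrnpc and Srsf5 were lower by 0.38 each, with SE 0.08 and 0.07 and adjusted p of 0.0034 and 0.0012, and Hnrnpul1 and Hnrnpf by less. By features, 21 of 65 were higher and 17 lower in Hepa 1-6, where 30.7% of all features were higher and 28.8% lower. These are differences between 2 established lines, in which the lines' other properties cannot be told apart from their origin.

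Other cell type markers differed between the lines as well. The summed linear ratio of 4 measured cholangiocyte markers of 5 was 2.56 to 3.92 in Hepa 1-6 and 19.4 to 29.8 in AML12, with Krt19 at -4.62 to -4.09 and 3.49 to 4.19; Epcam of the same list went the other way, at -2.55 to -1.87 in Hepa 1-6 and -5.15 to -4.75 in AML12. That of 5 of 5 stellate or fibroblast markers was 4.85 to 23.5 in Hepa 1-6 and 0.707 to 1.21 in AML12. Most of that sum was Dcn, at 4.19 to 4.50 in control and prolactin-treated Hepa 1-6, 1.95 and 2.07 with actinomycin D, and -3.66 to -3.02 in AML12, while the defining stellate marker Pdgfrb was at -5.88 to -5.65 and -5.91 to -5.41 in the same line order. A sum of such ratios depends on what the pool holds of each gene and gives no amount of RNA. The part of these markers in the splicing factor differences was not tested. In bulk RNA fewer cells of a kind and less RNA per cell cannot be told apart. The call for Hnrnpr (-0.30 ± 0.10, adjusted p = 0.03) was lost without the first or second AML12 control (-0.35 and -0.25, adjusted p = 0.054 and 0.14) or the first Hepa 1-6 control (-0.22, adjusted p = 0.16). That for Srsf1 (-0.27 ± 0.08, adjusted p = 0.015) was lost without the second AML12 control (-0.24, adjusted p = 0.079) or the first Hepa 1-6 control (-0.22, adjusted p = 0.088). Hnrnpll (0.32 ± 0.10, adjusted p = 0.023) lost it without the second AML12 control (0.23, adjusted p = 0.15) or either Hepa 1-6 control (0.35 and 0.30, adjusted p = 0.06 and 0.097).

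Prolactin moved no member past the threshold in either line. In limma 0 of 28 passed in Hepa 1-6, where 0.0302% of all genes rose and 0.00604% fell, and 0 of 28 in AML12, where 0.719% rose and 0.55% fell. An unadjusted p under 0.05 was reached by 2 of 28 members in Hepa 1-6, against 1359 of all 16549 genes. In AML12 it was reached by 5 members, against 2796 of the 16549 genes. Differences ran from -0.17 to 0.31 in Hepa 1-6 and from -0.23 to 0.49 in AML12, and the 95% intervals of single members extended from -0.41 to 0.47 and from -0.47 to 0.79 in the same order.

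In Hepa 1-6, Srsf5 and Srsf6 had the largest positive moderated t. Srsf5, whose message is known to respond to insulin in liver cells, was at -0.48 and -0.48 with prolactin against -0.81 and -0.78 in controls (0.31 ± 0.07, unadjusted p = 0.0017, adjusted p = 0.29 in limma). In AML12 its prolactin arrays, at -0.49 and -0.35, lay on either side of the controls at -0.40 and -0.43. Srsf6 was at 0.13 and 0.15 with prolactin in Hepa 1-6 against -0.02 and 0.01 in controls (0.14 ± 0.05, adjusted p = 0.54).

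In AML12, Hnrnpl and Srsf11 stood furthest above their controls for their error. Hnrnpl was at 0.12 and 0.12 with prolactin against -0.22 and -0.27 in controls (0.36 ± 0.09, adjusted p = 0.10 in limma). Srsf11 was at 1.02 and 1.15 with prolactin against 0.64 and 0.54 in controls (0.49 ± 0.13, adjusted p = 0.12). Both had the same sign of difference under actinomycin D in AML12, in a comparison that shares these control arrays. Srsf2 (-0.23 ± 0.10, adjusted p = 0.31) and Srsf9 (-0.15 ± 0.07, adjusted p = 0.30) had the largest negative moderated t.

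The difference of prolactin responses between the lines likewise passed for 0 of 28 members in limma, where 0.0544% of all genes were higher and 0.0665% lower in Hepa 1-6. An unadjusted p under 0.05 was found for 5 members and for 1810 of all 16549 genes. The difference was -0.53 ± 0.13 for Hnrnpl (adjusted p = 0.20) and -0.57 ± 0.18 for Srsf11 (adjusted p = 0.34). Prolactin arrays lay above both controls for 10 members and below for 7 in Hepa 1-6, where 21.1% and 22.2% of all genes did so, and for 9 and 9 in AML12, where 20.9% and 27.9% did. In the fit by features, 0 of 65 member features passed in Hepa 1-6, where 0.00841% of all features rose and 0.00561% fell. An unadjusted p under 0.05 was reached by 5 member features there and by 12 in AML12. These numbers were not counted over all features, so they cannot be set against a share. In AML12, 1 of 65 rose, where 1.49% of all features rose, and none fell, where 0.701% did. The feature that rose belonged to Hnrnpa3 (0.58 ± 0.09, adjusted p = 0.027), and the count was 0 without the second AML12 control, either AML12 prolactin array, or any of the Hepa 1-6 control and prolactin arrays, and 3 after quantile normalization. The gene value of Hnrnpa3 differed by 0.13 ± 0.05 (adjusted p = 0.22).

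**Figure D5:**
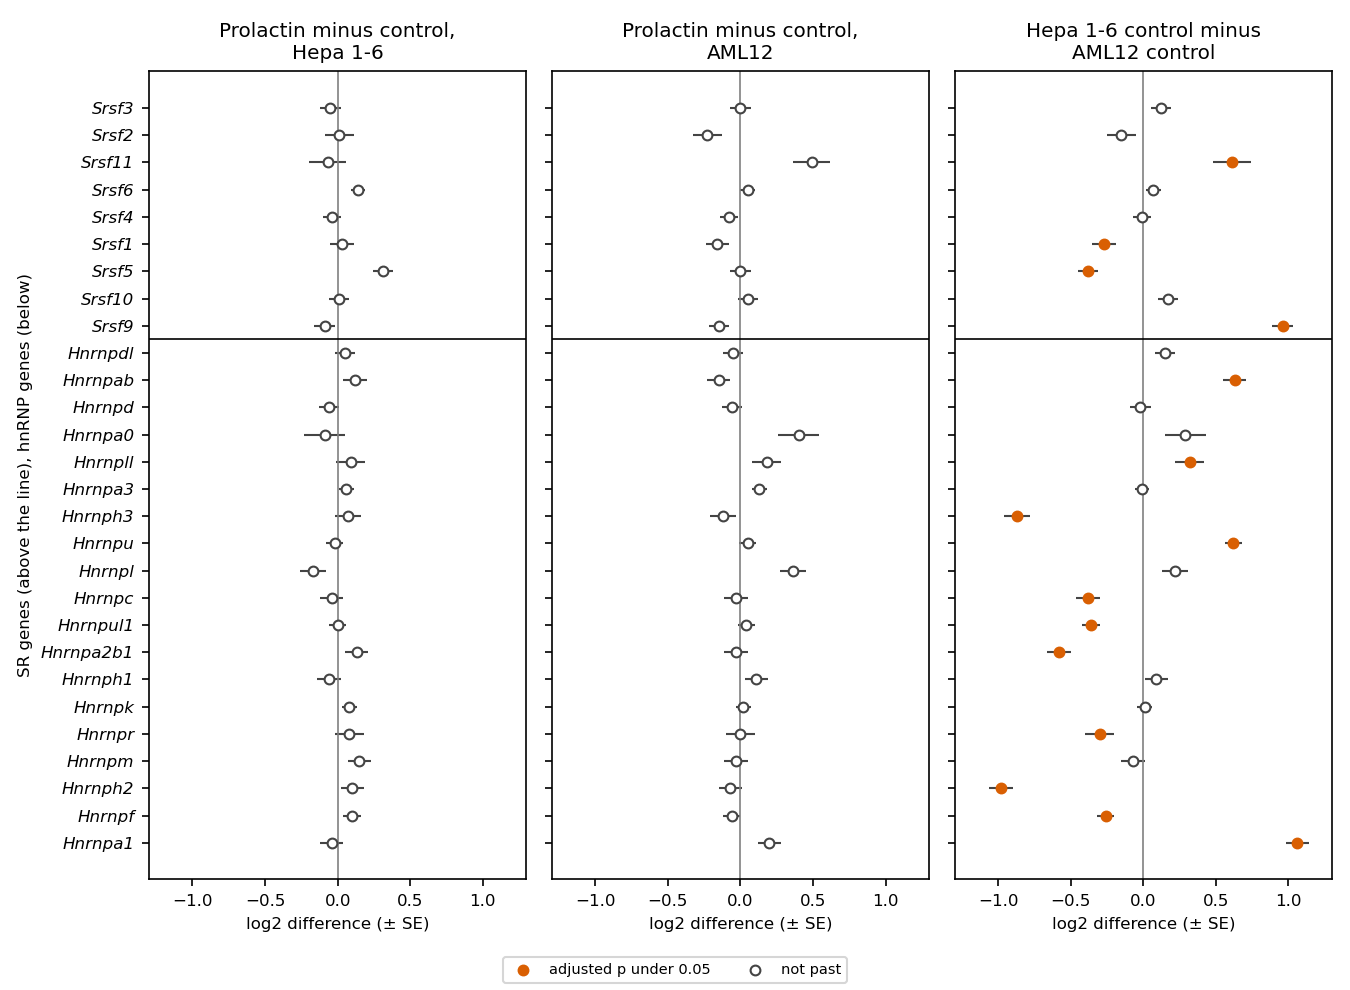
Log2 difference ± SE (x axis) of the 28 genes (rows) for prolactin minus control in Hepa 1-6 and in AML12, and for Hepa 1-6 control minus AML12 control. All prolactin differences lie between -0.23 and 0.49 and none passed the threshold, while the control comparison spans -0.98 to 1.06.

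The rest of the splicing machinery was followed through 5 lists of genes, whose shares are set against those of all genes under actinomycin D, 23.0% fallen and 27.9% risen in Hepa 1-6 and 25.5% and 28.0% in AML12. Of 14 measured branch point and 3' splice site factors, actinomycin D lowered 9 (64.3%) and raised none in Hepa 1-6 (median -0.38), and lowered 12 (85.7%) and raised 1 (7.14%) in AML12 (median -0.49). Sf3b6, the SF3b subunit that contacts the branch adenosine, fell by 1.16 ± 0.09 in Hepa 1-6 (adjusted p = 2.8e-05) and 1.10 ± 0.09 in AML12 (adjusted p = 2.5e-05), and Sf3b1, the large SF3b scaffold, rose by 0.33 ± 0.07 in AML12 (adjusted p = 0.0033). Of 28 snRNP protein genes, 16 fell (57.1%) and none rose in Hepa 1-6 (median -0.23), and 14 fell (50.0%) and 1 rose (3.57%) in AML12 (median -0.25). Among them Prpf8, the catalytic-core protein of the U5 snRNP, fell by 0.70 ± 0.09 in Hepa 1-6 (adjusted p = 0.00049), and Prpf3 of the U4/U6 snRNP fell by 1.09 ± 0.06 in AML12 (adjusted p = 4.6e-06).

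Of 19 SR-related proteins and SR protein kinases, 7 fell (36.8%) and 4 rose (21.1%) in Hepa 1-6 (median -0.06), and 9 fell (47.4%) and 2 rose (10.5%) in AML12 (median -0.12). Srek1, an SR-related protein, fell by 1.72 ± 0.05 in Hepa 1-6 (adjusted p = 1e-06) and 1.52 ± 0.05 in AML12 (adjusted p = 5.5e-07), the largest fall among the 5 lists in each line. Tra2a, an enhancer-binding relative of SR proteins, rose by 0.52 ± 0.06 in Hepa 1-6 (adjusted p = 0.0002) and 0.32 ± 0.06 in AML12 (adjusted p = 0.0022). Among 33 other regulators, 12 fell (36.4%) and 7 rose (21.2%) in Hepa 1-6, and 11 fell (33.3%) and 8 rose (24.2%) in AML12. The paraspeckle protein gene Nono fell by 1.47 ± 0.06 and 1.31 ± 0.06 in the same line order (adjusted p = 3.4e-06 and 2.3e-06). Of 10 measured nonsense-mediated decay and exon junction genes, 5 fell (50.0%) and 2 of the 10 rose in Hepa 1-6, and 6 fell (60.0%) and 1 rose (10.0%) in AML12. Smg5 fell by 1.06 ± 0.09 in Hepa 1-6 (adjusted p = 4e-05) and 0.66 ± 0.09 in AML12 (adjusted p = 0.00037), and Smg1, the Upf1 kinase, rose by 0.29 ± 0.07 and 0.22 ± 0.07 (adjusted p = 0.012 and 0.037).

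Between the untreated lines, more than 50.0% of the genes in 3 of these lists were higher in Hepa 1-6, where 32.1% of all genes were higher and 29.8% lower. Of the 28 snRNP protein genes, 21 were higher (75.0%) and 1 lower (3.57%) in Hepa 1-6 than in AML12 (median 0.40, against 0.04 for all genes and 0.00 for the 28 SR and hnRNP genes). Prpf4 was higher by 1.44 ± 0.06 (adjusted p = 1.8e-07). Of the 10 decay and exon junction genes, 7 were higher (70.0%) and none lower, with Upf1, the central decay helicase, higher by 0.97 ± 0.10 (adjusted p = 5e-05). Of the 14 branch point and 3' splice site factors, 8 were higher (57.1%) and 3 lower (21.4%). Of the 19 SR-related genes, 8 were higher (42.1%) and 3 lower (15.8%), and of the 33 other regulators, 12 were higher (36.4%) and 13 lower (39.4%). Srpk1, a kinase that phosphorylates SR proteins, was higher by 1.29 ± 0.07 (adjusted p = 8e-07) and its paralog Srpk2 lower by 0.82 ± 0.06 (adjusted p = 5e-06). Under prolactin, 1 gene of the 5 lists passed: Ptbp2, the paralog of the splicing repressor PTB known from neurons, rose by 0.31 ± 0.06 in AML12 (adjusted p = 0.045).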

How the data were processed

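Per the labels' protocols, Cy5-labelled RNA of each sample was hybridised with Cy3-labelled reference RNA on 12 Agilent arrays, 1 per sample. The deposited values are log10 ratios (sample over reference) that the authors had normalized; the submitters' processing notes name Agilent Feature Extraction. Its version, settings and log base are not given in the sources used, and base 10, which that software writes by convention, was assumed. Exact zeros, 12.7% of values, were treated as no ratio.

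Multiplying by 3.32 gave log2 ratios, with no further scaling. Features with 1 symbol and a ratio on all arrays (28519) were averaged per gene. Genes were tested with limma 3.58.1 in R 4.3.3 (1 mean per group over 12 arrays, 6 residual degrees of freedom plus a prior of 1.84), two-sided, with Benjamini-Hochberg adjustment over 16549 genes and a threshold of 0.05. The fit over single features was added after seeing the data. Simulated data used each gene's spread within groups over all 12 arrays. On the AML12 actinomycin D arrays, 67, 67 and 66 of 16549 genes were changed by 0.5, 1 and 2 log2 units. Of these, 49.3%, 70.1% and 86.4% were recovered. Far more genes were called in the real comparison, so recovery there was not measured. Replicate numbers were checked as pairs: deviations of same-numbered arrays correlated at -0.048 to 0.159 over 15 group pairs, so they were not used as pairs.

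The members, lists and tests were chosen with earlier results of these data known. Values per array are given for up to 6 members with the largest rise and fall past the threshold in each comparison within a line, up to 5 between lines, and for the largest moderated t where none passed; of each list up to 2 per direction are named. Hnrnpul2, Srsf12 and the genes whose features disagree were added beyond that rule, after their values were seen. All 30 genes were matched to RefSeq (GRCm38.p6) by Entrez identifier. Alternatives were other scalings, filters, feature summaries, priors, subsets of arrays and leaving out each array. No protein table or genome was used. Tables used pandas 2.3.3 and numpy 2.4.6 under Python 3.11.15, and figures matplotlib 3.10.9.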

Additional observations from a re-analysis of the deposited data

Results flagged for a closer look

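For 7 SR and hnRNP genes the response to actinomycin D differed between the lines by a test of the difference itself (limma, Hepa 1-6 minus AML12, n = 2 arrays per group). The difference was -1.31 for Srsf11, -0.72 for Hnrnpa3, -0.63 for Hnrnph3, -0.62 for Hnrnpl, -0.39 for Hnrnpul1, -0.34 for Hnrnpd and 0.40 for Hnrnpf. By gene value, Srsf11, Hnrnpa3, Hnrnph3 and Hnrnpul1 of these fell in Hepa 1-6 and rose in AML12, and Hnrnpf rose in Hepa 1-6 and fell in AML12. Groups of 2 arrays are too small to test for single arrays that stand apart.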

How the results depend on the processing

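Of 57 named gene results, 32 kept their direction and their side of the threshold under all 11 alternatives and with each of the 12 arrays left out, 25 lost the call under at least 1 and 7 turned direction under at least 1. The members that rose under actinomycin D in AML12 numbered 5 with the arrays of 1 line and 4 with the compared groups only, against 8; in Hepa 1-6 they numbered 1 after quantile normalization, 4 with the median of features and 0 with 1 line or the compared groups only, against 2. Prolactin raised 1 member in AML12, against 0, after quantile normalization or with the feature of highest mean ratio. With that feature choice, 10 members were lower in the difference of actinomycin D responses, against 6, and 4 in the control comparison, against 9.

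Direction turned for Hnrnpll under actinomycin D with the median of features (0.34 in Hepa 1-6, 0.18 in AML12) and with the feature of highest mean ratio in Hepa 1-6 (0.06). That feature choice also turned Hnrnpu in Hepa 1-6 (0.02), Hnrnpf in AML12 (0.01), and Hnrnpul1 (0.01) and Hnrnpf (0.07) between controls, and keeping exact zeros turned Hnrnpul1 in AML12 (-0.06). These alternatives use other features of the same gene or other values for features with no ratio. Leaving out 1 array gave 0 to 3 members raised and 12 to 15 lowered by actinomycin D in Hepa 1-6, 5 to 9 raised and 9 to 11 lowered in AML12, 5 to 8 lower and 1 higher in the difference of responses, and 5 to 8 higher and 7 to 9 lower between controls. No named gene turned direction under median centring, quantile normalization or when an array was left out, and scalings moved the median gene by at most 0.073. With a replicate block, actinomycin D raised 9 and lowered 11 members in AML12 and raised 2 and lowered 14 in Hepa 1-6, the difference of responses was higher for 1 and lower for 5, and prolactin moved 0 (limma); the numbers are not known to pair the arrays. The number of arrays limits the precision.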
